A study of Mus musculus with 2 samples.

Results

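Levels of 10 genes of the intermediate filament family were measured in mouse pancreatic cancer cells: the simple keratins Krt7, Krt8, Krt18, Krt19 and Krt20, the basal or squamous keratins Krt5, Krt14, Krt15 and Krt17, and vimentin, Vim. They were picked by symbol from a count table of 21983 gene entries, and each symbol had exactly 1 row. The cells were 14837 cells, a mouse line of pancreatic ductal adenocarcinoma (PDAC) from the C57BL/6 strain, and how the line was derived is not given in the sources used here. They were kept for 48 h in conditioned medium, which is medium that other cells had grown in, taken either from cancer-associated fibroblasts (CAFs) or from 14837 cells themselves. The labels give no gene alteration or drug for either library. Of the 2 libraries, 1 per medium, the CAF-medium library could be tied to a column of the table by name and the other could not, so the media were not compared. Every value below is a level within the CAF-medium library.

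Keratins build the filament network of epithelial cells, and each filament needs a type I keratin joined to a type II keratin. Single-layered epithelia, such as the ducts of the pancreas, are known for the pair of Krt8 (type II) and Krt18 (type I), joined in ducts by Krt7 (type II) and Krt19 (type I), while Krt20 (type I) is known from the gut lining. The dividing layer of stratified epithelia, such as skin, is known for the pair of Krt5 (type II) and Krt14 (type I) together with Krt15 (type I), and Krt17 (type I) for skin appendages, wounds and squamous-like tumours. Vimentin, a type III filament protein, is typical of mesenchymal cells and common in cells grown in culture.

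The upstream sequences of 5 of the genes are shown first. The genes are the highest keratin pair (Krt18 and Krt8), another ductal keratin (Krt7), a basal keratin listed at 0 (Krt5) and vimentin. The sequences are placed by annotated starts, and where transcription began in these cells was not measured. RefSeq's promoter table for GRCm38.p6 holds 7 of the 10 members and no entry for Krt15, Krt17 and Krt19. Each sequence runs 5′ to 3′ along the gene's strand from 150 bases before RefSeq's start to 20 bases from it, 170 bases in all. They lie at chr15:102028066-102028235 on the plus strand (Krt18), chr15:102004323-102004492 on the minus strand (Krt8), chr15:101412253-101412422 on the plus strand (Krt7), chr15:101712886-101713055 on the minus strand (Krt5) and chr2:13574161-13574330 on the plus strand (Vim). GENCODE M21, on the same assembly, has its outermost start of Krt8 140 bases and of Krt18 36 bases further upstream. Its outermost start of Vim lies 384 bases and of Krt7 1360 bases further upstream. However, a Krt7 transcript there also starts within 1 base of RefSeq's start, and a Vim transcript 11 bases from it. Capitals mark exact matches on either strand. The words searched were TATAAA, known as the core of TATA boxes, then CCAAT, the word of NF-Y sites, then GGGCGG, the word of Sp1 sites, and lastly CACCTG, a word known from sites of SNAI and ZEB repressors.
Krt18: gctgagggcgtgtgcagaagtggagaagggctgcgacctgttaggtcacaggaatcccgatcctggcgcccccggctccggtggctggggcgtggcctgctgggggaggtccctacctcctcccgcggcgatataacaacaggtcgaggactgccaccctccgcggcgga
Krt8: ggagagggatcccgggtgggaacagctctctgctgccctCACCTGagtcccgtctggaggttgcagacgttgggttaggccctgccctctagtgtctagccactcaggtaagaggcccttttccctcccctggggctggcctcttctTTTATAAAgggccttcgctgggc
Krt7: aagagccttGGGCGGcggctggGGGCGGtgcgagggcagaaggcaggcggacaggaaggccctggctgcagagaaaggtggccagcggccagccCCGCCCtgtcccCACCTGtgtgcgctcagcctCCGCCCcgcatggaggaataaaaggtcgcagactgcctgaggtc
Krt5: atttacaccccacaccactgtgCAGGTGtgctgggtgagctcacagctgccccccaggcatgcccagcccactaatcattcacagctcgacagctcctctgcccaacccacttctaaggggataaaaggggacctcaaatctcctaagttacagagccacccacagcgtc
Vim: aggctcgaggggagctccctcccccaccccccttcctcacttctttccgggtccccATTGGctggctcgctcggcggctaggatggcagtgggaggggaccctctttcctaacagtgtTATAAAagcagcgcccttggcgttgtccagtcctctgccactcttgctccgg
The 2 members of the Krt8 and Krt18 pair did not share any of these words. Krt8 held TATAAA across RefSeq's start, where matches on the opposite strands overlap, and 1 CACCTG. Krt18 held no match to the 4 words. Krt7 held 4 matches to GGGCGG and 1 to CACCTG, Krt5 held 1 to CACCTG, and Vim held 1 to TATAAA and 1 to CCAAT. Of all 32851 windows of this length in the table, 8.10% held TATAAA, 26.3% CCAAT, 30.3% GGGCGG and 11.9% CACCTG. A match describes the letters only, and its absence says nothing about any factor.

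The library held 21269197 counts, and 52.6% of its entries had at least 10. The median gene among those stood at 806 counts, or 37.9 CPM (counts per 1000000). With 1 library there was no replicate spread and no test, and the intervals in parentheses are exact Poisson or binomial 95% intervals that cover counting error only. For a count of 0 the limit given is set apart from these, as a one-sided limit of 3 counts, or 0.141 CPM, and it too covers counting error only. Atp5a1 and Uqcrc1, genes of the respiratory chain that nearly all cells use, were also listed at 0 (named after their values were seen), so a member at 0 is described as listed at 0 and not as unexpressed. Of 8 ductal epithelial markers, 4 had at least 10 counts (50%) and 2 exceeded the median gene (25%). Both shares were near those of all genes, 52.6% and 26.3%. The list was led by E-cadherin, Cdh1, at 370 CPM and the mucin Muc1 at 60.3 CPM, and held the ductal factor Sox9 at 17.2 CPM. Epcam had 2 counts, and Cldn4, Cldn7 and Cftr were listed at 0, so these defining markers of duct cells were at or near 0 while the keratins were high.

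All 5 simple keratins lay above the median gene, and 3 of the 4 basal or squamous keratins were listed at 0. Of the 10 members, 6 had at least 10 counts, which 52.6% of all genes had. All 6 were above the median gene, against 26.3% of all genes, of which 36.7% were listed at 0. Krt18 stood at 38699 counts, or 1819 CPM (1801 to 1838), the 12th highest entry of the table. Its partner Krt8 stood at 16944 counts, or 797 CPM (785 to 809), in 103rd place. Both therefore ranked above 99% of the genes with at least 10 counts, Krt18 above 99.9% and Krt8 above 99.1%. Krt7 stood at 11703 counts, or 550.2 CPM (540.3 to 560.3), above 98.2% of those genes. Krt19, the type I keratin of ducts that has no tail, stood at 8898 counts, or 418 CPM (410 to 427), above 97.0%. Krt20 was the lowest of the 5, at 1975 counts, or 92.9 CPM (88.8 to 97.0), 2.45 times the median gene, against 48.0 times for Krt18.

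The basal or squamous keratins held 7 counts between them, all from Krt15, against 78219 counts in the simple keratins. Krt15 stood at 0.329 CPM (0.132 to 0.678). Krt5, Krt14 and Krt17 were each listed at 0. A 0 in this table sets no firm limit on expression, and no fold against these 3 is given. In bulk RNA a low level cannot be told apart from expression in few cells.

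**Figure D1:**
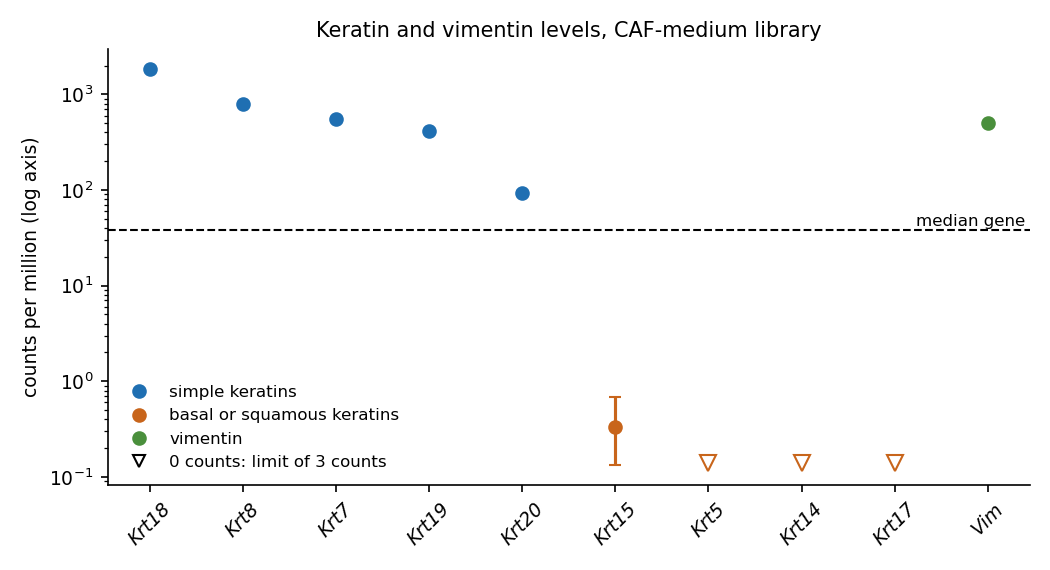
Level of each of the 10 members in the CAF-medium library in CPM on a log axis, with exact Poisson 95% intervals, which are narrower than the symbols at high counts. The 5 simple keratins and Vim lie between 92.9 and 1819 CPM, above the dashed line of the median gene at 37.9 CPM, and the open triangles show the limit of 0.141 CPM for the 3 keratins listed at 0.

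Vimentin was high as well, so the library carried simple keratin and vimentin transcripts side by side. Vim stood at 10591 counts, or 498 CPM (489 to 508), in 249th place and above 97.8% of the genes with at least 10 counts. Whether single cells held both cannot be told apart from a mixture of cells in this library. Markers of fibroblasts, which are the source of the medium and rich in vimentin, were low: of 12, 7 were listed at 0 (58.3%, against 36.7% of all genes), 9 had under 10 counts (75%, against 47.4%) and none exceeded the median gene, which 26.3% of all genes did. Col1a2, Col3a1, Dcn, Lum, Pdpn, Thy1 and Postn were listed at 0, Col1a1 had 29 counts and Fap 26. The receptor Pdgfra, at 727 counts or 34.2 CPM, held most of the list's summed 37.0 CPM. Of 6 immune markers, 3 were listed at 0 (50%, against 36.7% of all genes) and the highest was Cd68 at 121 counts. None of 5 endothelial markers reached 10 counts, and the highest was Pecam1 at 5. Of 5 acinar markers in the table, 4 were listed at 0 (80%, against 36.7% of all genes) and Cela1 had 10 counts. The summed level of these lists came to 5.78 CPM for immune, 0.470 CPM for endothelial and 0.470 CPM for acinar markers, and their part in the keratin or vimentin levels was not tested.

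Longer genes collect more counts, so members were put in order by CPM per kilobase of the longest transcript. Krt18 came first at 1266 CPM per kilobase, then Krt8 at 407, Krt19 at 265, Vim at 170.2, Krt7 at 134.4 and Krt20 at 48.2. The median gene with at least 10 counts stood at 11.1 CPM per kilobase. Krt18 was 3.11 times Krt8 (3.06 to 3.17) and Krt8 1.53 times Krt19 (1.49 to 1.57). Krt19 was 1.56 times Vim (1.52 to 1.60), Vim 1.27 times Krt7 (1.23 to 1.30) and Krt7 2.79 times Krt20 (2.66 to 2.93). Each neighbour in this order thus differed beyond counting error, though no replicate spread stands behind that.

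The middle of the order depended on which length was used, and its ends did not. Krt18 was at position 1, Krt8 at position 2, Vim at position 4 and Krt20 at position 6 with each of 4 lengths and with counts alone. The longest transcript of Krt7 has 4094 bases, of which its coding part is 1371, so Krt7 was at position 3, at 401 CPM per kilobase, when coding length was used. Krt19 was then at position 5 with 346 CPM per kilobase, after Vim at 356. On that scale Vim was 1.03 times Krt19 (1.0007 to 1.06), an interval that barely leaves out 1. Vim has 6 annotated transcripts, and the longest, of 2926 bases, keeps an intron. With its longest protein-coding transcript of 2193 bases, Vim stood at 227 CPM per kilobase and Krt19 at 1.17 times that (1.14 to 1.20). Krt18 exceeded Vim 7.44 times (7.28 to 7.60) per kilobase of the longest transcript, 5.58 times with the protein-coding one, 4.03 times with the coding length and 12.1 times with all exons joined. The direction for Krt18 and for Krt8 against Vim was the same throughout, with Krt8 at 1.52 to 3.88 times Vim over the 4 lengths.

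**Figure D2:**
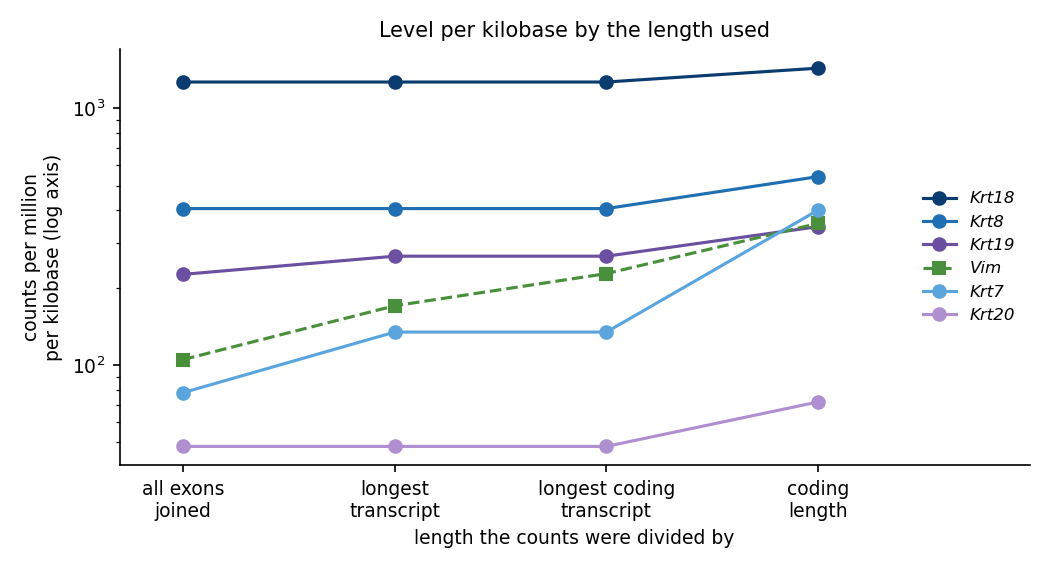
CPM per kilobase on a log axis for the 6 members with at least 10 counts, by the length that the counts were divided by. Krt18, Krt8 and Krt20 keep their places, while Krt7 runs from 78.1 with all exons joined to 401 with the coding length and crosses Vim and Krt19.

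Type I keratins outweighed type II keratins. Of the 78226 counts of the 9 keratins, 49579 were type I (Krt18, Krt19, Krt20 and Krt15) and 28647 type II (Krt8 and Krt7), a type I share of 63.4% (63.0 to 63.7) and a ratio of 1.73 (1.71 to 1.76). Per kilobase the ratio was 2.92 with the longest transcript, 1.96 with the coding length and 3.18 with all exons joined. Krt18 alone held 49.5% (49.1 to 49.8) of the counts, Krt8 21.7%, Krt7 14.96%, Krt19 11.4% and Krt20 2.52%. The simple keratins held 99.991% (99.982 to 99.996) of the 9 keratins' counts and 0.368% of all counts in the library.

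Copies in annotated transcripts, whose reads could alter a count, were found for 1 of the high members. Copies elsewhere in the genome were not searched for any member. Of the 64-base windows of Krt8's longest transcript, 23.5% were found exactly in Krt8-ps, a processed pseudogene that had no row in the table. No window of Krt18, Krt7, Krt19, Krt20, Krt15 or Vim occurred in a transcript of another gene. Among the members listed at 0, 6.72% of the windows of Krt5 were shared, mostly with Krt6a, 8.74% of those of Krt14, mostly with Krt16, and 1.08% of those of Krt17. Krt6a and Krt6b were themselves listed at 0 and Krt16 had 2 counts. Overlap with exons of neighbouring genes touched 1.09% of the exonic sequence of Krt7, 5.16% of that of Krt8 and 5.87% of that of Krt5.

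The 9 keratins lie in 2 clusters of keratin genes, in which most rows had under 10 counts. GENCODE M21 (mm10) places 26 keratin rows of the table on chromosome 15, type II genes apart from Krt18, of which 18 were listed at 0 (69.2%, against 36.7% of all genes). Krt8 (101996698 to 102004482, minus strand) and Krt18 (102028180 to 102032027, plus strand) close the cluster, with their starts 23.7 kb apart, pointing away from each other and with no keratin gene between them. Krt7 (101411043 to 101430313, plus strand) lies near the other end, beside Krt80 with 752 counts. Of the 22 keratin rows between Krt7 and Krt8, 18 were listed at 0 and the highest, Krt87, had 36 counts. Krt5 (101707070 to 101712898, minus strand) lies among these, and Krt6a and Krt6b are near it.

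Of the 27 keratin rows on chromosome 11, 11 were listed at 0 (40.7%, near the share of all genes). Of these rows 6 had at least 10 counts, which 52.6% of all genes had. Krt19 (100140810 to 100148665, minus strand) and Krt15 (100131758 to 100135928, minus strand) are direct neighbours with 4.88 kb between them. Krt19 had 8898 counts and Krt15 had 7, a ratio of 1371 per kilobase (665 to 3411). On the other side of Krt19 come Krt14 (100203162 to 100207548, minus strand) and Krt17 (100256217 to 100261029, minus strand), both listed at 0, with Krt9 and Krt16 among them at 2 counts each. Krt20 (99428403 to 99438150, minus strand) lies 703 kb from Krt19, next to Krt23, which had 657 counts. Vim is alone on chromosome 2 (13573927 to 13582826, plus strand).

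**Figure D3:**
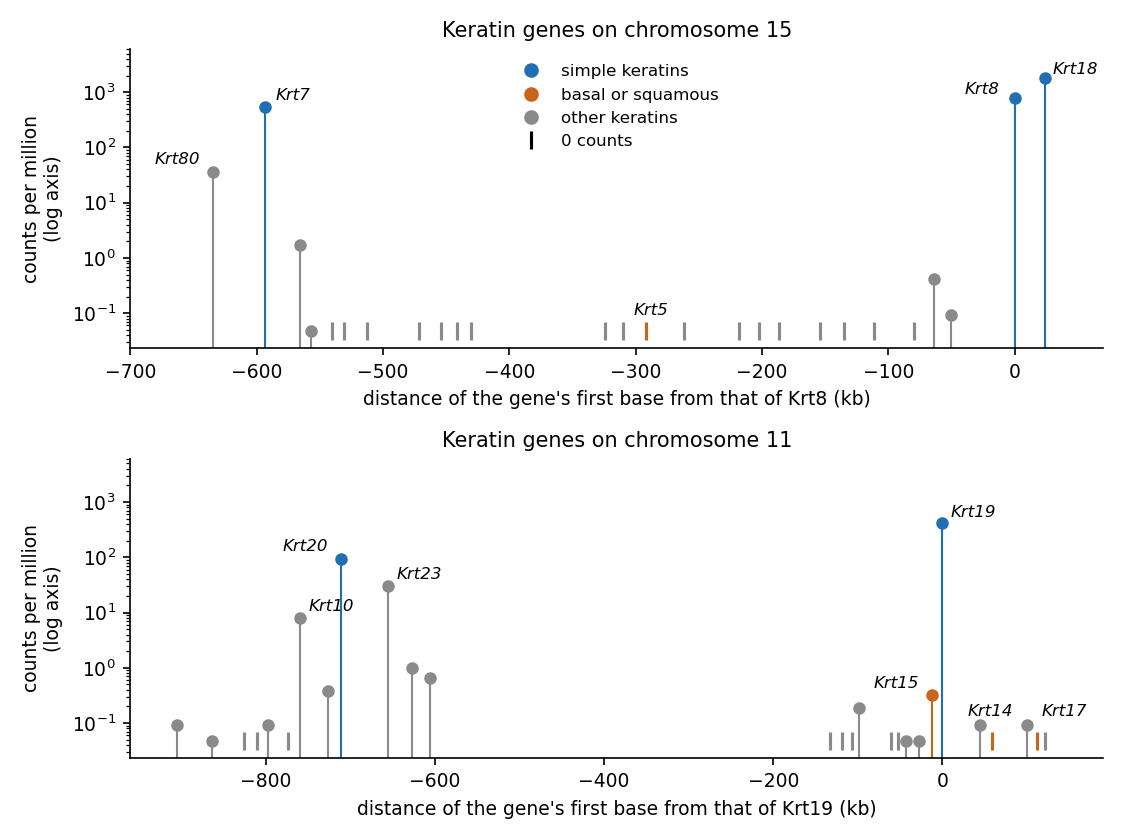
Level of every keratin row on chromosomes 15 and 11 in CPM on a log axis, against the distance of the gene's first base from that of Krt8 or Krt19 in kb, with short ticks for rows at 0 counts. Krt7 stands near one end of the chromosome 15 cluster and Krt8 and Krt18 at the other, with 18 of the 22 rows between Krt7 and Krt8 at 0.

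The other keratins added little. Of 44, 26 were listed at 0 (59.1%, against 36.7% of all genes) and 6 had at least 10 counts (13.6%, against 52.6%). None exceeded the median gene, which 26.3% of all genes did. The 9 members held 97.9% (97.8 to 98.0) of all keratin counts. Krt80, a type II keratin that lies beside Krt7, led the rest at 35.4 CPM (32.9 to 38.0), followed by Krt23, a type I keratin beside Krt20, at 30.9 CPM (28.6 to 33.3). Krt10, the type I keratin of the upper layers of skin, stood at 8.09 CPM and Krt87, a hair keratin, at 1.69 CPM.

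Among other filament genes, only the nuclear lamins and nestin joined vimentin above the median gene. Of 14 genes, 4 exceeded it (28.6%, against 26.3% of all genes) and 6 were listed at 0 (42.9%, against 36.7%). Both shares were near those of all genes. Lamin A/C, Lmna, stood at 651 CPM and 165 CPM per kilobase of the longest transcript, where Vim was 1.03 times as high (1.01 to 1.06). With all exons joined Vim was 0.942 times Lmna, so their order depends on the length. The B-type lamins Lmnb1 and Lmnb2 stood at 70.3 and 47.8 CPM. Nes, a filament protein known from progenitor cells that assembles with vimentin, stood at 69.4 CPM, and Vim was 15.01 times as high per kilobase (14.2 to 15.9).

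Genes that anchor keratin and vimentin filaments ranged from among the highest in the table to 0. Of 22 linkers and partners, 16 had at least 10 counts (72.7%, against 52.6% of all genes), 9 exceeded the median gene (40.9%, against 26.3% of all genes) and 5 were listed at 0. Per kilobase, 7 of the 22 exceeded the median gene, fewer than the 9 by CPM. The share of all genes above it per kilobase is not given here, so the excess by CPM may not hold on that scale. The plakins, long proteins that tie filaments to junctions and to other parts of the skeleton, were uneven, and their length adds to their counts. Dst stood at 1158 CPM or 49.7 CPM per kilobase, and Plec, which binds both keratins and vimentin, at 714 CPM or 46.2 per kilobase. Dsp, which ties keratins to desmosomes, stood at 243 CPM or 25.4 per kilobase. Macf1 stood at 208 CPM or 8.85 per kilobase, and Ppl at 52.9 CPM or 8.51 per kilobase. The plakins Eppk1 and Evpl stood lower, at 15.1 and 7.66 CPM, or 1.23 and 1.20 per kilobase. Krtcap2, at 255 CPM, is 1 of the 9 but is a subunit of the complex that attaches sugars to proteins and not a filament partner. The desmosome genes Dsg3, Dsc2 and Dsc3 were listed at 0, as were Flg and Tchh, which bundle keratins in skin and hair, and Pkp1 had 1 count. Others of the Dsg and Pkp families had clear counts, as had the desmosome gene Jup. Pkp4 and Jup stood at 141 and 119 CPM, above the median gene. Pkp2, Dsg2 and Pkp3 stood below it, at 29.7, 27.0 and 11.9 CPM.

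Transcription factors tied to keratin genes were mixed. Of 24, 16 had at least 10 counts (66.7%, against 52.6% of all genes). In this list 8 exceeded the median gene (33.3%, against 26.3%) and 6 were listed at 0 (25%, against 36.7%). Trp63, the factor best known for switching on Krt5 and Krt14 in stratified epithelia, was listed at 0, as those 2 keratins were. Klf5, a factor of simple and basal epithelia, led at 248 CPM (242 to 255), followed by the general factor Sp1 at 216 CPM. Zeb1, a repressor of epithelial genes, stood at 89.7 CPM and Elf3, an epithelial factor, at 68.0 CPM. The epithelial factor Grhl2 had 1 count, Grhl3 and Ovol2 were listed at 0, and Snai1, another repressor, had 8 counts. Relatives of these factors differed: Grhl1 had 428 counts, Ovol1 15, Snai2 438, Zeb2 1066 and Klf4 1241. Foxa2 and Gata6, also in the list, stood above the median gene at 65.6 and 65.3 CPM. Ehf, Foxa1 and Twist1 had 721, 582 and 545 counts, below it. Trp73, Tfap2a and Tfap2c were listed at 0.

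Squamous differentiation genes were low apart from a pair of them. Of 23 in the table, 7 had at least 10 counts (30.4%, against 52.6% of all genes). In this list 2 exceeded the median gene (8.70%, against 26.3%) and 9 were listed at 0 (39.1%, near the share of all genes). Sprr1a, a protein of the cornified envelope, stood at 111 CPM (107 to 116), and Cstb, an inhibitor of proteases that many tissues express, at 98.1 CPM. Ivl, another envelope protein, stood at 8.27 CPM, and Krt10, also in this list, is given above. The keratins of squamous layers in the list, Krt1, Krt4, Krt6a, Krt6b, Krt13 and Krt16, had between 0 and 2 counts.

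**Figure D4:**
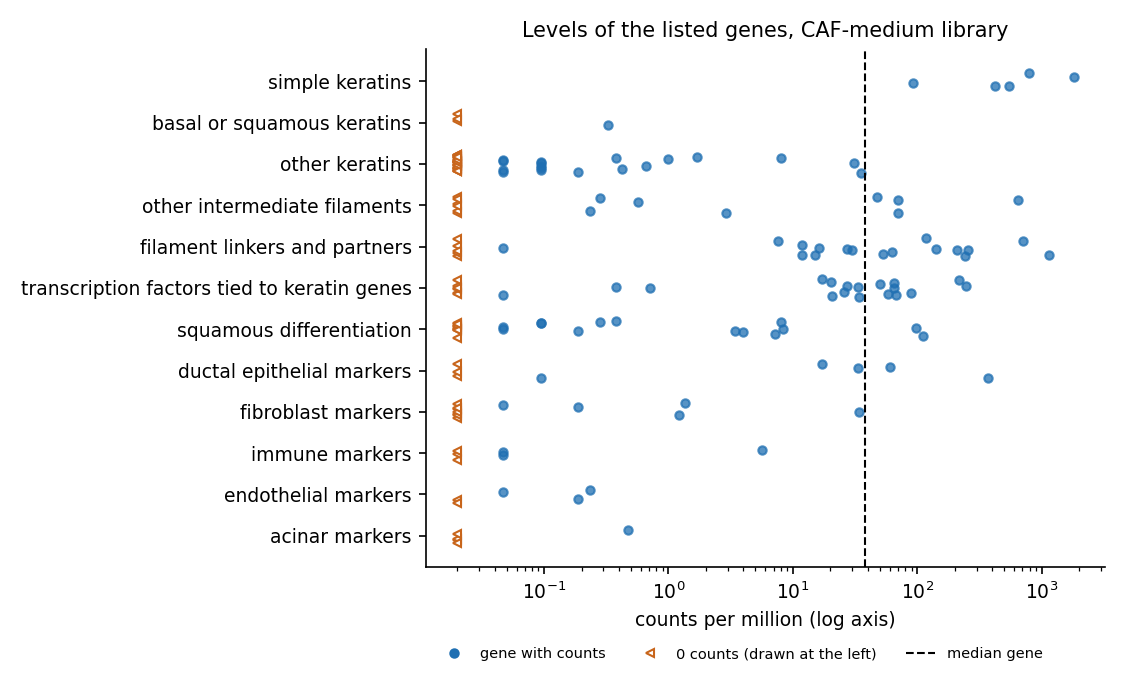
Each dot is 1 gene's level in CPM on a log axis, by list, with genes at 0 counts drawn as open triangles at the left and the median gene at 37.9 CPM as a dashed line. All 5 simple keratins lie to the right of the line, and no gene of the other keratins or of the fibroblast, immune, endothelial and acinar markers does.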

How the data were processed

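The submitters' processing notes name StringTie, HISAT2 2.1.0 and mm10 without saying what each did. For the counter, the annotation, the strand setting and reads with several matches, the sources used here give nothing. The values deposited by the authors are whole-number counts per gene symbol. The table has 2 value columns. Of these, 1 had a name found in no sample's labels and was not used, so the planned ratio between media was not made.

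Counts were divided by the library total and multiplied by 1000000. Lengths and positions came from GENCODE M21, to which 99.6% of symbols matched. Windows of 64 bases every 16 bases of each member's longest transcript were searched in all annotated transcripts on both strands, and the genome itself was not searched. By rule, genes named are all members, the 4 highest of each other list, and Trp63, Klf5, Elf3, Plec, Dsp, Krt6a, Krt6b, Krt16, Krt23, Krt80, Lmna and Cdh1 at any value. Some markers of cell types among the 4 highest of their lists had under 10 counts and are not named. Other genes named, such as markers at 0, were chosen after their values were seen. Some lists share genes: Krt10 and other squamous keratins are in 2 lists, as is Sox9. A gene that meets the rule for named genes is not reported here. The members and lists were chosen with earlier results of these data known. The interval of a ratio was tested on simulated data. The work ran on matplotlib 3.10.9, pandas 2.3.3, scipy 1.17.1, numpy 2.4.6 and Python 3.11.15.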

Additional observations from a re-analysis of the deposited data

How the results depend on the processing

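A single library gives no replicate error. For the 5 simple keratins, the length assumed moved the ratio to Vim by more than counting error under each alternative. By coding length and by counts alone, Krt7 moved to position 3 and Krt19 to position 5 of the order. The log2 ratio of Krt7 to Vim was -0.34 per kilobase of the longest transcript and turned to 0.14 with no length and 0.17 with coding length. That of Krt19 to Vim was 0.64 and turned to -0.25 and -0.042. The counts are the same in all of these, so the turns come from the lengths. The type I share of 63.4% came to 74.5% per kilobase of the longest transcript or of the longest protein-coding one, 76.1% with all exons joined and 66.3% with coding length. Without Krt8, the member with over 10% of windows shared, it came to 80.9%. Leaving out a type II keratin can only raise this share, so that value says nothing about shared reads. The protein-coding transcript, and coding length for the shares and the Vim ratios, were chosen after seeing the data. The simple keratin share stayed within its interval under all 5 alternatives. With 7 basal or squamous counts against 78219, no length could move it far. Leaving out Krt8, a simple keratin, could only lower it, so its staying in place says little. Leaving the 100 highest genes out of the total raised each level 1.16 times, and the other totals by at most 1.01 times. With no count minimum for the median gene, genes above it numbered 5 other keratins, 16 linkers, 15 transcription factors, 7 squamous genes, 4 ductal, 3 fibroblast and 1 immune marker, because the median then includes genes at 0. Per kilobase, 1 other keratin, Krt23, exceeded the median gene. The other 22 of 30 list counts were within 1.5 times of the main count. Other scalings and pseudocounts for a ratio between media were not run, since that ratio was not made.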
